A study of Saccharomyces cerevisiae with 16 samples.

Results

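The ergosterol and sterol pathway genes of budding yeast were examined in chromatin immunoprecipitation libraries for acetylated lysine 18 of histone H3 (H3K18ac), collected at 16 time points of the Yeast Metabolic Cycle (YMC). The 30 members were chosen by gene name, and all 30 were found among the 6002 nuclear protein-coding genes. They comprised 9 genes of the mevalonate part of the pathway, 15 genes of the late sterol part, 2 redox partners, 2 transcriptional regulators and 2 sterol esterification enzymes. All libraries came from the strain ZKY329, a CEN.PK MATa strain in which SPT7, a subunit gene of the SAGA acetyltransferase complex, carries a FLAG tag (SPT7-FLAG::natMX). The tag was therefore present at every time point, and no untagged strain was compared. Cells were taken from a cycling continuous culture between 48.32 and 51.95 h, with 1 library at each time point. The time points were grouped by phase as 3 time points of the oxidative phase (OX, time points 3 to 5), 6 of the building phase (RB, 6 to 11) and 7 of the charging phase (RC, 1, 2 and 12 to 16). The time points of a phase repeat no condition, and those of RC lie at both ends of the series. The p-values therefore set a phase difference only against the spread between time points. They take the time points as independent, although adjacent ones are alike.

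Ergosterol is the main sterol of yeast membranes. It is made from acetyl-CoA through mevalonate and farnesyl diphosphate, and then through squalene and lanosterol in a long series of steps, several of which need molecular oxygen or heme. The zinc cluster factors Upc2 and Ecm22 activate many of the genes when sterols run low, and excess sterol is esterified and stored in lipid droplets. Acetylation of H3 lysine 18 is deposited by SAGA among other complexes and is found around the starts of active genes.

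For each gene, H3K18ac was measured as mean read coverage in an upstream and a downstream region, each reaching 300 bp from the start codon, divided by the mean nuclear coverage of the same library. This ratio is called relative coverage, and a value of 1 equals the nuclear mean. Mean nuclear coverage ranged from 27.5 to 39.4 reads per base, lowest at time point 14 and highest at time point 15. No base held more than 102 reads in any library, a cap that compresses differences at genes with high values. H3 was not used, so that changes in nucleosome occupancy and in acetylation per nucleosome cannot be told apart. Differences between phases are given on the log2(relative coverage + 0.1) scale as 1 phase minus the mean of the other 2, with the standard error (SE) and the Benjamini-Hochberg adjusted p of limma over all genes tested, and a gene was called at an adjusted p under 0.05.

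H3K18ac was above the genome-wide level at most sterol genes. The median of the members was 2.06 in relative coverage downstream and 1.84 upstream, against 1.74 and 1.61 for all genes tested, and 21 members downstream and 20 upstream lay above the median of all genes. The highest levels downstream were those of ERG28, an endoplasmic reticulum protein that holds the late enzymes together, at 2.61, and of ERG6, the sterol methyltransferase, at 2.60. The lowest were those of HMG2 at 0.801 and UPC2 at 0.922. At 5 members downstream (IDI1, ERG6, ERG4, ERG28 and ERG25) and 4 upstream (ERG6, ERG27, IDI1 and ERG11), at least 10% of the bases were near the coverage cap.

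Downstream of the start codon, 12 of the 30 members differed between phases, a smaller share than the 64.1% of all 5713 genes tested. Upstream, 26 members differed, against 71.8% of 5755 genes. Of the members, 11 differed in both regions, 15 only upstream and 1, ERG26, only downstream, while ERG6, ERG27 and ERG29 passed the test in neither region. Among the alternative fits, the limma test over the phases called each of these 3 once (adjusted p = 0.00686, 0.0471 and 0.0485). Upstream, 33.5% of the bases of ERG6 and 22.0% of those of ERG27 were near the coverage cap. A cubic polynomial over the time points, which needs no phases, called 16 members downstream (64.2% of all genes) and 23 upstream (73.8%). Among the better covered genes (mean coverage from 51 up), which held 23 members downstream and 20 upstream, the share of all genes that differed was 63.0% and 73.2%. The members that differed among these 23 and 20 were not counted. The counts of 12 and 26 are over all 30 members and cannot be set against these shares. The downstream count rose to 20 after quantile normalization and to 21 with a window of 600 bp around the start codon. The share of all genes is not given for either setting, so these counts cannot be set against the 64.1%.

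The course of most sterol genes over the cycle was shallow downstream. The median log2 range between the highest and the lowest time point was 0.53 over the members and 0.60 over all genes, and 19 members lay below the latter. A range above 1 was found at ECM22 (1.56), ERG4 (1.24) and ARE2 (1.01), that is at 3 members, against 21.9% of all genes, and the narrowest range was that of ERG12 (0.25). Time point 14, the shallowest library, held the highest value of 12 members downstream and of 17 upstream (14.8% and 25.7% of all genes), which fell to 4 and 9 when the cap was corrected for, a correction chosen after seeing the data. The shares of all genes were not computed for the corrected values.

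**Figure D1:**
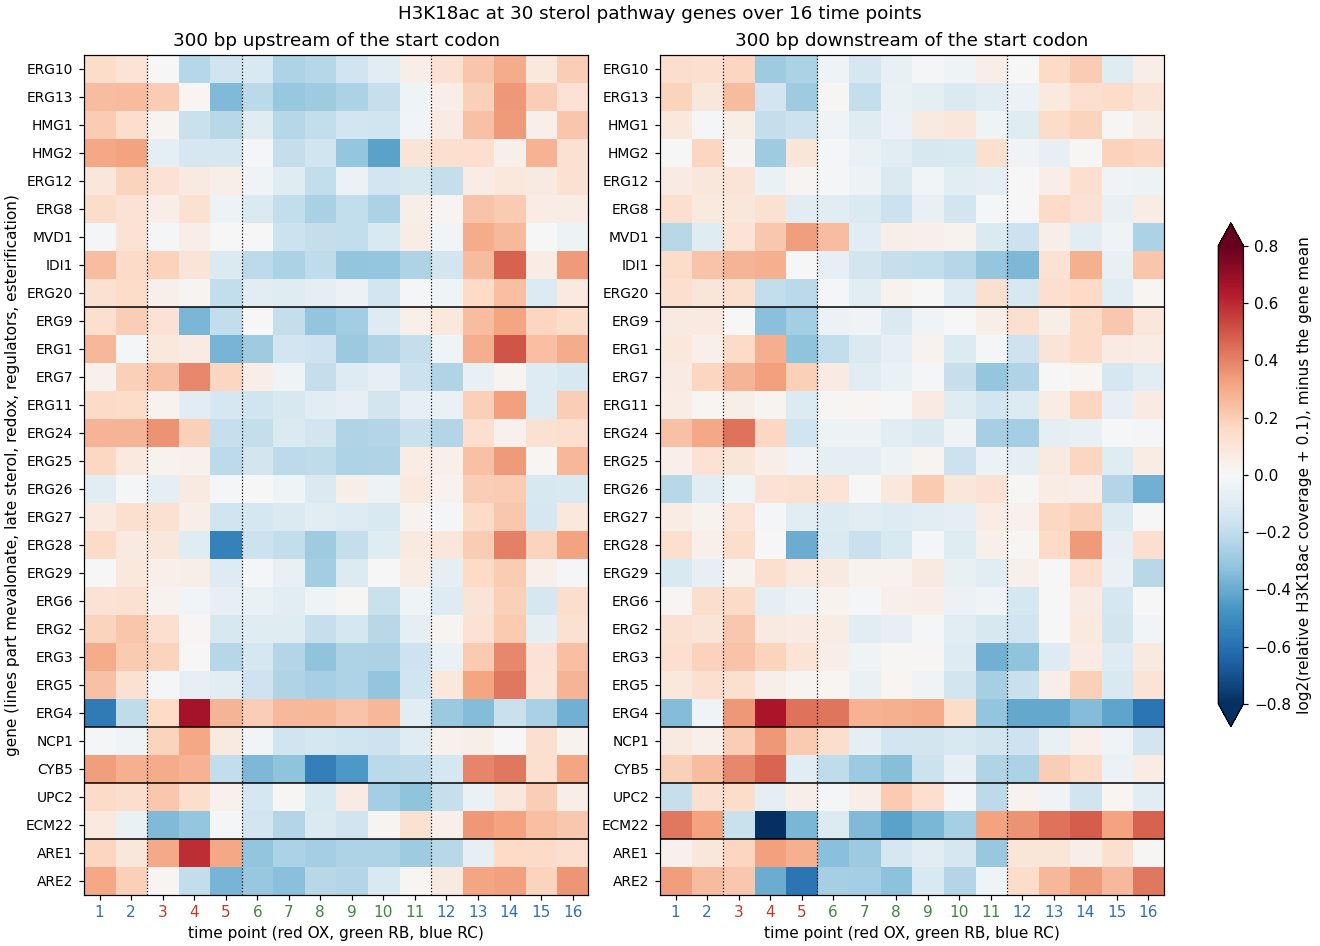
H3K18ac at the 30 sterol pathway genes (rows, ordered by their place in the pathway) over the 16 time points (columns, labels coloured by phase), as log2(relative coverage + 0.1) minus the mean of each gene, upstream (left) and downstream (right) of the start codon. Upstream, most rows were red at time points 13, 14, 1 and 2 and blue through RB, whereas downstream the rows of ERG4, ECM22 and ARE2 stood out, with ranges of 1.24, 1.56 and 1.01.

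No member had every OX value below all others (1.52% of all genes downstream and 1.89% upstream) or every RB value above them (0.718% and 0.382%), and none had every RC value below them downstream (0.928%). The members whose phases did not overlap are given with their values.

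In the downstream region, 6 members were higher in OX (31.4% of all genes) and 3 were lower (14.6%). No member was higher in RB (6.07%) and 6 were lower (23.4%). In RC, 6 members were higher (23.0%) and 3 were lower (25.3%). The share of members called was near that of all genes for lower in OX (10%), lower in RB (20%) and higher in RC (20%). It was further below for higher in OX (20%), higher in RB (0%) and lower in RC (10%). The 3 contrasts are not independent of each other. The 3 members lower in OX (ECM22, ARE2 and ERG9) all lost the call without time point 4, and 7 were called without time point 3. Without time point 5, 10 members were lower in RB, and the RC count of 6 dropped to 3 without any one of 9 time points (1, 5, 7 to 10, 13, 14 and 16). With quantile normalization the OX calls were 4 higher and 10 lower, against 6 and 3, and with median-of-ratios scaling they were 5 and 6. Shares of all genes are not given for these scalings or for the fits with a time point left out.

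Of the mevalonate part, which builds farnesyl diphosphate, 3 of 9 genes differed downstream (64.1% of all genes) and all 9 upstream (71.8%). Downstream, the decarboxylase gene MVD1 was 1.64, 1.78 and 1.94 at the 3 OX time points, 1.40 to 1.82 with a median of 1.56 in RB and 1.26 to 1.57 with a median of 1.42 in RC. Its OX values lay at the top of its course and overlapped with RB, at time point 6. It was higher in OX by 0.27 (SE 0.08, adjusted p = 0.0103) and lower in RC, with a difference of -0.24 (SE 0.06, adjusted p = 0.0052). The OX call was lost without time point 4 or 5 and with either other scaling (0.18 with median-of-ratios scaling and 0.15 with quantile normalization). It was also lost with a 600 bp window (0.13). Upstream the OX difference of MVD1 was 0.02 (SE 0.07, adjusted p = 0.832). Its RC difference there had the other sign, 0.13 (SE 0.06, adjusted p = 0.0801). The upstream region of MVD1 overlaps the coding region of its divergent neighbour COQ2, 235 bp away.

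IDI1, the isopentenyl diphosphate isomerase, had relative coverage of 2.99, 3.02 and 2.46 in OX, 1.97 to 2.35 (median 2.14) in RB and 1.90 to 3.02 (median 2.74) in RC downstream. It was lower in RB, at -0.32 (SE 0.09, adjusted p = 0.0105), but time point 12 of RC, at 1.90, lay below every RB value. Upstream the phases were better separated, since all 6 RB values of IDI1 (1.69 to 1.83) were below all others, which held for 2.45% of all genes. ERG8, phosphomevalonate kinase, was also lower in RB downstream (-0.15, SE 0.05, adjusted p = 0.0196), a call that was lost under 6 of 27 alternatives. Among these were the fits without time point 4 (-0.13) or time point 8 (-0.14), with median-of-ratios scaling (-0.07) and with quantile normalization (-0.02).

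The first 2 enzymes, the thiolase ERG10 and the HMG-CoA synthase ERG13, were higher in RC downstream by 0.16 and 0.17 (adjusted p = 0.047 and 0.0444). These calls were marginal, as the test over the 3 phases did not pass (adjusted p = 0.0891 and 0.0712), and they were lost under 14 and 17 of 27 alternatives. Upstream the RC differences of both were larger, 0.30 (SE 0.05, adjusted p = 0.000406) for ERG10 and 0.33 (SE 0.07, adjusted p = 0.0014) for ERG13. The 7 RC values of ERG10 upstream, 1.83 to 2.13, were above all other time points (3.21% of all genes). ERG20, also of the mevalonate part, passed no phase contrast downstream (adjusted p = 0.282 over the phases). Upstream, ERG20 was higher in RC by 0.15 (SE 0.05, adjusted p = 0.0303). Its divergent neighbour SET2, 585 bp away, had an RC difference of -0.41 (SE 0.07, adjusted p = 0.000814) downstream of its own start. The part of SET2 in the values of ERG20 was not tested.

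HMG1 and HMG2 encode the 2 isozymes of HMG-CoA reductase, the main control point of the pathway. HMG1 downstream was 2.01, 1.68 and 1.71 in OX, 1.80 to 2.07 (median 1.89) in RB and 1.81 to 2.21 (median 2.00) in RC. HMG2 downstream was 0.809, 0.635 and 0.860 in OX, 0.721 to 0.881 (median 0.756) in RB and 0.756 to 0.922 (median 0.803) in RC. The phases overlapped at both genes, and neither was called (adjusted p = 0.139 for HMG1 and 0.316 for HMG2).

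Upstream, both reductase genes were higher in RC. HMG1 was 2.25, 1.95 and 1.88 in OX, 1.88 to 2.18 in RB and 2.28 to 2.84 in RC, with every RC time point above all others (3.21% of all genes) and a difference of 0.31 (SE 0.05, adjusted p = 0.000337). HMG2 was 0.741, 0.709 and 0.712 in OX, 0.561 to 0.856 in RB and 0.816 to 1.01 in RC, with a difference of 0.33 (SE 0.08, adjusted p = 0.00215). Their levels stayed apart at every time point. The log2 ratio of HMG1 to HMG2 downstream averaged 1.14 ± 0.19 over the 3 OX time points (SD), 1.22 ± 0.14 over the 6 of RB and 1.17 ± 0.17 over the 7 of RC, and no difference between phases was detected (exact permutation test of F over 960960 arrangements, one-sided in F, p = 0.734, adjusted p = 0.734 over 3 pairs).

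In the late sterol part, 4 of 15 genes differed downstream (64.1% of all genes) and 11 upstream (71.8%), the latter a share close to that of all genes. ERG9, squalene synthase, commits farnesyl diphosphate to sterols. Its downstream values were 1.40, 1.09 and 1.14 in OX, 1.28 to 1.45 (median 1.37) in RB and 1.45 to 1.64 (median 1.50) in RC. Every RC time point was above all others, which was so for 0.928% of all genes, and the difference was 0.23 (SE 0.05, adjusted p = 0.00281). The difference in OX was -0.24 (SE 0.06, adjusted p = 0.00662) and -0.17 without time point 4.

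ERG1, squalene epoxidase, and ERG11, lanosterol demethylase, are the targets of allylamine and azole antifungals. ERG1 downstream was 1.96, 2.16 and 1.38 in OX, 1.52 to 1.79 (median 1.64) in RB and 1.55 to 1.96 (median 1.83) in RC. ERG11 downstream was 2.32, 2.28 and 2.08 in OX, 2.01 to 2.35 (median 2.25) in RB and 2.08 to 2.54 (median 2.34) in RC. The phases overlapped at both, and neither was called (adjusted p = 0.308 and 0.584).

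Upstream, ERG1 and ERG11 were higher in RC. ERG1 was 1.47, 1.44 and 1.04 in OX, 1.10 to 1.23 (median 1.17) in RB and 1.34 to 2.00 (median 1.68) in RC, a difference of 0.37 (SE 0.08, adjusted p = 0.00155). ERG11 was 2.29, 2.12 and 2.04 in OX, 2.00 to 2.15 (median 2.08) in RB and 2.09 to 2.85 (median 2.51) in RC, a difference of 0.21 (SE 0.06, adjusted p = 0.00621). At ERG1 all RC values were above all RB values, while at ERG11 the lowest RC value lay within the RB range.

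ERG7, lanosterol synthase, was highest in OX. Its downstream values were 2.68, 2.79 and 2.52 in OX, 1.76 to 2.31 (median 2.09) in RB and 1.85 to 2.50 (median 2.21) in RC. The 3 OX values were above all others, as at 17.2% of all genes, and the difference was 0.33 (SE 0.08, adjusted p = 0.00369). In RB the difference of ERG7 was -0.21 (SE 0.07, adjusted p = 0.0226), a call that was lost under 6 of 27 alternatives. These were the fits without time points 4, 10 or 11, with depth as a covariate, with time point 11 counted in RC and with quantile normalization, where it was -0.08. Its upstream region followed the same course (OX 0.33, SE 0.07, adjusted p = 0.00255).

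ERG4 encodes the reductase of the last step to ergosterol, and it had the widest range of the enzymes downstream (1.24 on the log2 scale). The downstream values were 2.55, 3.17 and 2.71 in OX, 1.57 to 2.70 (median 2.43) in RB and 1.29 to 1.94 (median 1.47) in RC. Time point 1 stood at 1.53 and time point 4 at 3.17, and coverage was below 1.60 from time point 11 on. The difference was 0.57 in OX (SE 0.12, adjusted p = 0.00164) and -0.70 in RC (SE 0.10, adjusted p = 0.00037), and both calls were kept under all 27 alternatives.

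Upstream, ERG4 was 1.40, 2.03 and 1.52 in OX, 1.16 to 1.52 (median 1.49) in RB and 0.807 to 1.08 (median 0.991) in RC. All 7 RC values were below all others, which held for 0.608% of all genes, and ERG4 was the only member lower in RC upstream (14.8% of all genes; -0.60, SE 0.08, adjusted p = 0.000235). ERG4 lies on chromosome VII at 472855 to 474276 on the plus strand (R64) and faces away from PDR1, which encodes a multidrug resistance factor, over a gap of 556 bp. PDR1 moved the same way in its own downstream region, with 0.39 in OX (SE 0.09, adjusted p = 0.00215) and -0.32 in RC (SE 0.07, adjusted p = 0.00243), and the part of this neighbour in the values of ERG4 was not tested.

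Of the other late genes, ERG26, the C-3 sterol dehydrogenase, was 1.82, 2.04 and 2.04 in OX, 1.87 to 2.17 (median 2.01) in RB and 1.41 to 1.95 (median 1.75) in RC downstream. It was lower in RC, at -0.20 (SE 0.06, adjusted p = 0.0177), with the lowest values at time points 16, 15 and 1, but its upstream difference was 0.02 (SE 0.06, adjusted p = 0.792). ERG28 was 2.86, 2.60 and 1.95 in OX, 2.28 to 2.67 (median 2.40) in RB and 2.47 to 3.30 (median 2.83) in RC. Its RC difference of 0.19 (SE 0.07, adjusted p = 0.0444) was marginal downstream and lost under 12 of 27 alternatives, whereas upstream it was 0.37 (SE 0.08, adjusted p = 0.00147).

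ERG24, ERG25, ERG27, ERG29, ERG6, ERG2, ERG3 and ERG5 passed no phase contrast downstream, with adjusted p of the test over phases from 0.103 (ERG2) to 0.939 (ERG6). Upstream, ERG5, the C-22 desaturase, was 2.17, 2.09 and 2.05 in OX, 1.74 to 1.95 (median 1.83) in RB and 2.32 to 2.96 (median 2.58) in RC, so that the 3 phases did not overlap at all. Every RB value was below all others (2.45% of all genes) and every RC value above all others (3.21%). The difference of ERG5 was 0.36 in RC (SE 0.05, adjusted p = 0.000235) and -0.32 in RB (SE 0.05, adjusted p = 0.000648). The C-5 desaturase ERG3, the methyl sterol oxidase ERG25 and the isomerase ERG2 were also higher in RC upstream, by 0.32, 0.27 and 0.18.

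**Figure D2:**
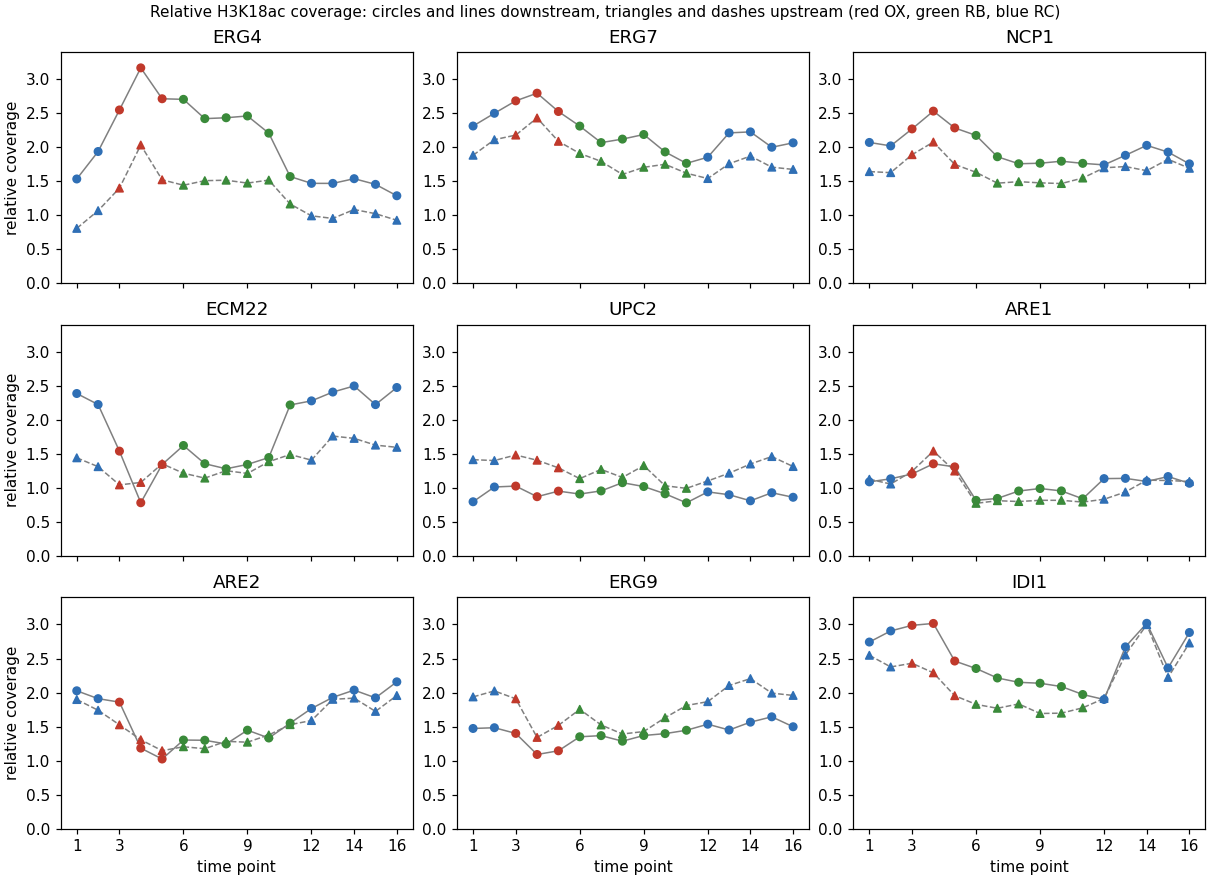
Relative H3K18ac coverage (1 is the nuclear mean) by time point at 9 members, with the downstream region as circles and solid lines and the upstream region as triangles and dashes, 1 library per point, coloured by phase. ERG4 peaked at 3.17 at time point 4 downstream, where ECM22 was at its lowest value of 0.782, and ARE1 and ARE2 took different courses through OX and RB.

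The redox partners, NCP1 (the cytochrome P450 reductase that serves Erg11 and Erg5, and also squalene epoxidase) and CYB5 (cytochrome b5), both differed in both regions. NCP1 downstream was 2.27, 2.53 and 2.28 in OX, 1.76 to 2.17 (median 1.78) in RB and 1.74 to 2.07 (median 1.93) in RC. The OX values were above all others (17.2% of all genes), with a difference of 0.31 (SE 0.07, adjusted p = 0.00164). In RB the difference was -0.19 (SE 0.06, adjusted p = 0.0163), and it was no longer called with median-of-ratios scaling (-0.11), quantile normalization (-0.07) or the correction for the cap (-0.20).

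CYB5 downstream was 2.82, 2.99 and 2.00 in OX, 1.66 to 2.03 (median 1.81) in RB and 1.77 to 2.55 (median 2.38) in RC. It was lowest in RB, with a difference of -0.39 (SE 0.09, adjusted p = 0.00436), while the third OX value, at time point 5, was already within the RB range. Its OX difference of 0.33 (SE 0.11, adjusted p = 0.0197) was no longer called without time point 3 (0.26) or time point 4 (0.22), with a 600 bp window (0.26), with quantile normalization (0.17) or upstream (0.18, SE 0.11, adjusted p = 0.211). Upstream, every RB value of CYB5 (1.25 to 1.61) was below all others, as at 2.45% of all genes. The RB difference there was -0.54 (SE 0.09, adjusted p = 0.000722), and the RC difference was 0.36 (SE 0.09, adjusted p = 0.00329).

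UPC2 and ECM22 encode paralogous activators that bind the same sterol regulatory element. The level of UPC2 downstream was low and nearly level: it was 1.03, 0.871 and 0.952 in OX, 0.781 to 1.08 (median 0.935) in RB and 0.796 to 1.01 (median 0.900) in RC, with no phase called (adjusted p = 0.599 over the phases). ECM22 had the widest range of all members. It was 1.54, 0.782 and 1.34 in OX, 1.28 to 2.22 (median 1.40) in RB and 2.22 to 2.50 (median 2.39) in RC downstream. From 2.39 at the first time point, coverage of ECM22 was down to 0.782 by time point 4, stayed below 1.70 until time point 10 and was back at 2.22 by time point 11.

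All RC values of ECM22 were above all others (0.928% of all genes), although the RB value at time point 11 lay just under the lowest of them. The difference was 0.77 in RC (SE 0.12, adjusted p = 0.000575), which was kept under all 27 alternatives, and -0.64 in OX (SE 0.15, adjusted p = 0.00267). The OX difference was -0.37 and not called without time point 4. Upstream the same differences were 0.33 (SE 0.08, adjusted p = 0.00214) and -0.27 (SE 0.09, adjusted p = 0.0301). ECM22 lies on chromosome XII at 600019 to 602463 on the minus strand (R64), and its nearest neighbour upstream is 1748 bp away, so that neither region is shared with another gene.

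The 2 factors parted over the cycle. The log2 ratio of UPC2 to ECM22 downstream averaged -0.29 ± 0.37 over the 3 OX time points (SD), -0.64 ± 0.42 over the 6 of RB and -1.31 ± 0.17 over the 7 of RC, and the phases differed (exact permutation test, p = 0.00136, adjusted p = 0.00407 over 3 pairs). At time point 4 the order was turned, with UPC2 above ECM22 by 0.14. Upstream the ratio did not pass the test (exact permutation test, p = 0.0439, adjusted p = 0.0658). UPC2 itself was lower in RB upstream, at -0.22 (SE 0.07, adjusted p = 0.024).

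**Figure D3:**
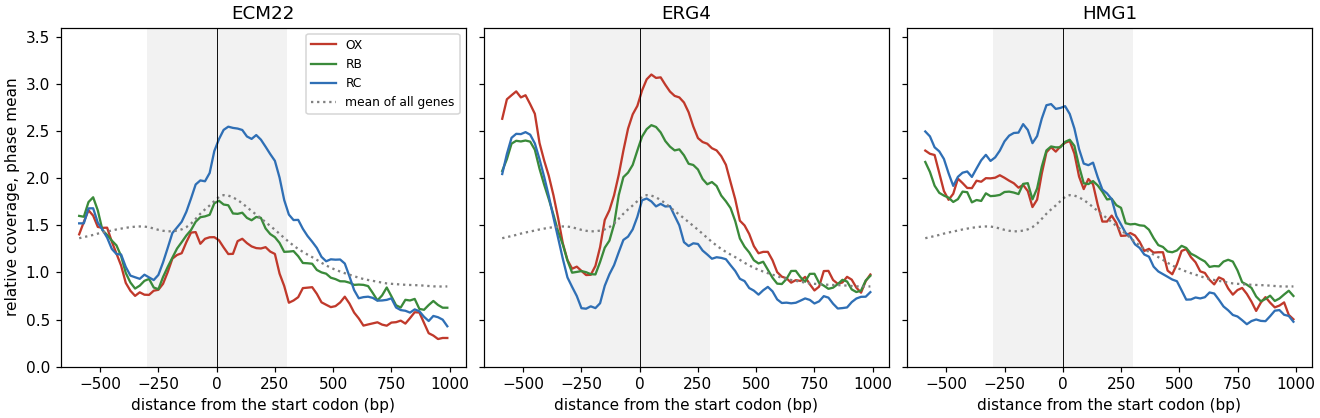
Mean relative H3K18ac coverage in each phase against the distance from the start codon in bp at ECM22, ERG4 and HMG1, in bins of 20 bp, with the mean of all genes over all time points as a dotted line and the 2 regions of 300 bp shaded. The phases of ECM22 were apart mainly from the start codon on, those of ERG4 over the whole peak, and those of HMG1 on both sides of the start codon, with RC highest before it and lowest further inside the gene.

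The position of the change differed between members. At ECM22 the bin starting 60 bp after the start codon held 1.20 in OX, 1.63 in RB and 2.54 in RC, whereas the bin starting at -300 bp held 0.76, 0.93 and 0.95. At ERG4 the bin starting at 60 bp held 3.07, 2.55 and 1.70 in the same order. At HMG1 the RC level was the highest before the start codon, with 2.58 against 1.93 in OX and 1.94 in RB in the bin starting at -180 bp, and the lowest inside the gene, with 0.71 against 1.16 and 1.20 in the bin starting at 540 bp. These bins were chosen after seeing the profiles and were not tested.

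ARE1 and ARE2 encode the paralogous acyltransferases that esterify sterols for storage. ARE1 downstream was 1.20, 1.35 and 1.31 in OX, 0.817 to 0.991 (median 0.900) in RB and 1.07 to 1.17 (median 1.13) in RC. The 3 phases did not overlap: all OX values were above the others (17.2% of all genes) and all RB values below them (1.31%). The difference was 0.33 in OX (SE 0.07, adjusted p = 0.000871) and -0.38 in RB (SE 0.05, adjusted p = 0.000421), and both were kept under all 27 alternatives. Upstream, ARE1 was 1.24 to 1.54 in OX, 0.773 to 0.818 in RB and 0.833 to 1.13 in RC. All OX values there were above all others (12.2% of all genes) and all RB values below all others (2.45%).

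ARE2 downstream was 1.86, 1.18 and 1.02 in OX, 1.24 to 1.55 (median 1.32) in RB and 1.77 to 2.16 (median 1.93) in RC. It was high through RC, still high at time point 3 of OX and lowest at time point 5. The difference was 0.52 in RC (SE 0.09, adjusted p = 0.000814), kept under all alternatives, and -0.29 in OX (SE 0.11, adjusted p = 0.0402), which was lost under 12 of them. Those included each of the fits without time points 1, 4, 5, 9, 10, 14, 15 or 16, with -0.13 without time point 5. Upstream, all RC values of ARE2 (1.59 to 1.96) were above all others, as at 3.21% of all genes. The RC difference there was 0.44 (SE 0.07, adjusted p = 0.000254).

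The ratio of ARE1 to ARE2 changed over the cycle in both regions. Downstream the log2 ratio averaged -0.03 ± 0.49 over the 3 OX time points (SD), -0.55 ± 0.16 over the 6 of RB and -0.76 ± 0.12 over the 7 of RC (exact permutation test, p = 0.00424, adjusted p = 0.00636 over 3 pairs). In OX it was -0.59 at time point 3 and 0.33 at time point 5. Upstream it averaged 0.02 ± 0.26, -0.64 ± 0.13 and -0.75 ± 0.12 (exact permutation test, p = 0.000206, adjusted p = 0.000618).

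ARE1 and its divergent neighbour BUD23, a methyltransferase gene of ribosome assembly, are 383 bp apart, so that their upstream regions overlap in part. ARE1 lies on chromosome III at 211929 to 213761 on the plus strand (R64). Downstream of its own start, BUD23 was higher in OX by 0.91 (SE 0.13, adjusted p = 7.58e-05) and lower in RB at -0.42 (SE 0.11, adjusted p = 0.00826). Its RC difference was -0.49 (SE 0.10, adjusted p = 0.00202), whereas that of ARE1 was 0.05 (SE 0.05, adjusted p = 0.457), and the part of BUD23 in the values of ARE1 was not tested.

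Upstream of the start codon, many members shared one course, high in RC and low in RB. In RC, 18 members were higher (37.4% of all genes), 7 of the 9 mevalonate genes and 8 of the 15 late genes among them, and in RB, 18 were lower (34.1%), 6 and 7 of those parts among them. In OX, 4 members were higher (24.6%; ARE1, ERG4, ERG7 and NCP1) and 1, ECM22, was lower (16.6%), and no member was higher in RB (4.19%). The RC difference was above 0 at 26 of 30 members (64.7% of all genes) and the RB difference below 0 at 29 (79.2%), ERG4 being the exception in RB.

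All genes moved in the same direction to a lesser degree. The median RC difference upstream was 0.19 over the members and 0.08 over all genes, and the median RB difference was -0.20 and -0.12. Median-of-ratios scaling and quantile normalization moved the RB median of all genes by over 0.1, to 0.00 and 0.01. Relative to this shift the RB median of the members was -0.07 and -0.04, and 7 members were lower in RB under each. The RC median of the members was 0.10 and 0.09 under the same scalings, with all genes at 0.00 under both, and the RC count was 16 and 15. The shares of all genes called under these scalings are not given, so the counts of 7, 16 and 15 stand without a background. The correction for the cap gave RC medians of 0.34 over the members and 0.10 over all genes. Between 17 and 21 members were higher in RC when any 1 time point was left out, 17 without time point 14.

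The upstream region of 12 members overlaps another coding region or lies between closely spaced divergent genes. Of the 18 members without such an overlap, 17 differed between phases upstream (71.8% of all genes), 13 were higher in RC (37.4%) and 13 were lower in RB (34.1%). These shares are over all genes tested, with or without such an overlap, and none was computed for genes free of it. The RB count over this subset was not recomputed under the other scalings, which took that over all members from 18 to 7. For each member the courses of its 2 regions over the 16 time points had correlations with a median of 0.74, from -0.04 at ERG29 to 0.94 at ARE2. These are descriptions over libraries that share their depth between the regions.

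A scaling factor common to both regions of a library cancels in the ratio of upstream to downstream coverage, apart from the 0.1 added to each before the test. The comparison of this ratio was added after seeing the data. It was not recomputed with the other scalings or with the correction for the cap. This ratio differed between phases at 20 members (45.0% of 5701 genes). It was higher in RC at 18 members (36.0%) and lower in RB at 6 (8.86%). The largest RC differences were those of ERG3 (0.38, SE 0.07, adjusted p = 0.000502), MVD1 (0.37, SE 0.06, adjusted p = 0.000295) and ERG5 (0.32, SE 0.05, adjusted p = 0.000283). At ERG3 the mean ratio was 0.740 ± 0.077 over the 3 OX time points (SD), 0.761 ± 0.116 over the 6 of RB and 0.986 ± 0.072 over the 7 of RC. ECM22 went the other way, with a ratio of 1.02 ± 0.35 in OX, 0.850 ± 0.121 in RB and 0.659 ± 0.060 in RC and a difference of -0.45 (SE 0.10, adjusted p = 0.00284).

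**Figure D4:**
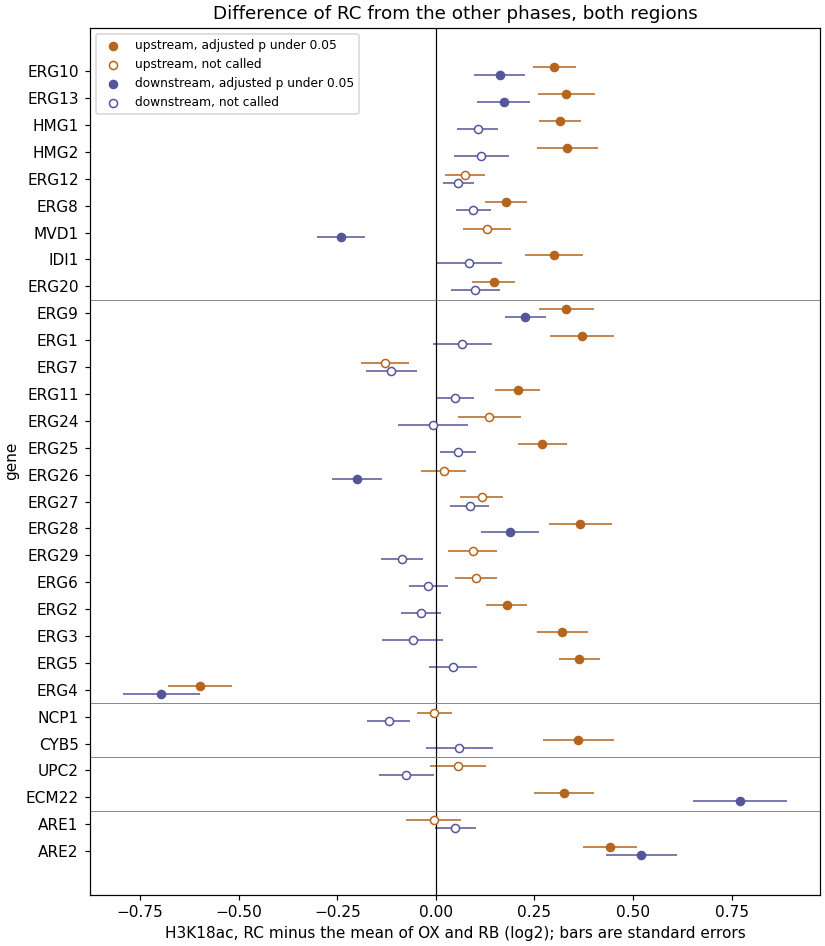
Difference of RC from the mean of OX and RB on the log2 scale at each member, upstream (brown) and downstream (blue), with standard errors as bars and filled points for an adjusted p under 0.05. The upstream points of 18 members were higher in RC and called, against 6 downstream, and ERG4 lay at the far left in both regions (-0.60 and -0.70).

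Mevalonate and late genes were compared as a description, with no test. Averaged over its genes, each centred on its own mean, the mevalonate part minus the late part was -0.08 ± 0.08 over the 3 OX time points (SD), -0.03 ± 0.06 over the 6 of RB and 0.05 ± 0.03 over the 7 of RC downstream. Upstream the same differences were -0.04 ± 0.04, -0.04 ± 0.04 and 0.05 ± 0.02. All 7 RC values were above 0 in both regions, from 0.0085 to 0.0915 downstream and from 0.0159 to 0.0718 upstream, while the other phases held values of both signs in RB and only negative ones in OX. The late mean includes ERG4, with RC differences of -0.70 downstream and -0.60 upstream and its highest value at time point 4 in both regions. The means were not recomputed without ERG4, so its part in these differences is not known.

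Downstream, the 2 parts were furthest apart at time point 4, where the mevalonate mean was -0.06 and the late mean 0.11. The median OX difference was -0.07 over the mevalonate genes and 0.08 over the late genes, against 0.06 over all genes. Without time point 4, the difference between these 2 medians went from -0.14 to -0.04. In RC the medians were 0.10 and -0.01, against 0.00 for all genes, and the RC difference was above 0 at 8 of 9 mevalonate genes and at 7 of 15 late genes, against 49.2% of all genes. Pairs of genes within a part and between the parts moved together to like degrees. The median correlation of such pairs along the cycle was 0.35 within the mevalonate part, 0.35 within the late part and 0.34 between them downstream, and 0.73, 0.65 and 0.70 upstream, where all pairs share the libraries and their depth.

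**Figure D5:**
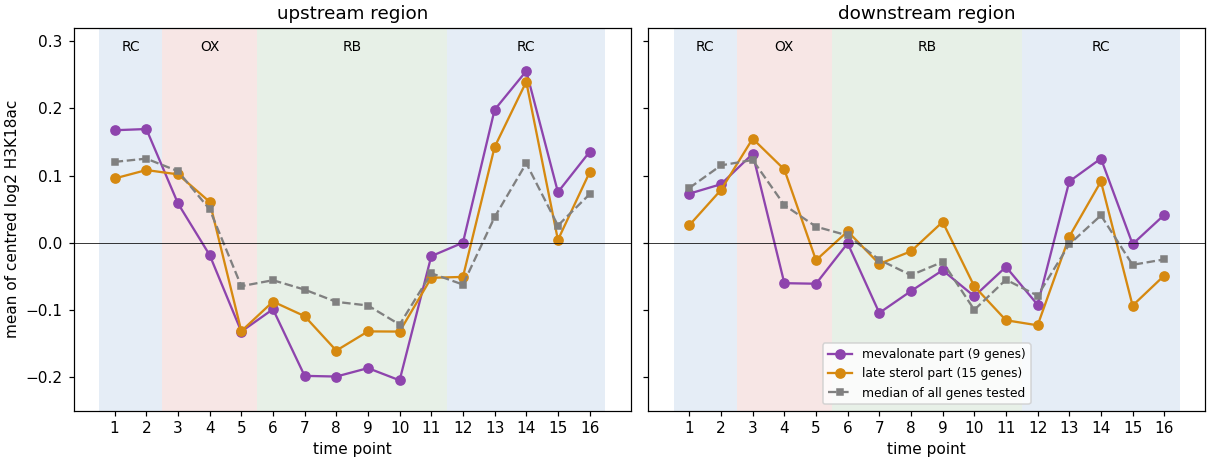
Mean over the genes of the mevalonate part (purple, 9 genes) and of the late sterol part (orange, 15 genes) of log2(relative coverage + 0.1), each gene centred on its own mean, by time point, with the median of all genes tested (grey, dashed) and the phases shaded. Both parts were highest upstream at time point 14, at 0.26 and 0.24, and they were apart downstream at time point 4, at -0.06 and 0.11.

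Other genes of sterol metabolism were counted in the same fits. Of 10 further regulators and partners, 6 differed downstream (64.1% of all genes) and 8 upstream (71.8%). Of 24 genes of sterol uptake, transport and storage, 17 differed downstream and 19 upstream, and of 10 genes of other branches from farnesyl diphosphate, 5 and 4 did. Upstream, 6, 13 and 3 of these genes were higher in RC (37.4% of all genes), and 7, 8 and 3 were lower in RB (34.1%).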

How the data were processed

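H3K18ac ChIP-seq of 16 time points of a cycling culture was analysed, with 1 library per time point extracted in a single batch. The authors trimmed the reads (Trimmomatic 0.32), mapped them, dropped multimapped reads, took out duplicates with SAMtools and deposited the coverage signal, as whole reads over each base, from bedtools genomecov. Bowtie is named as the mapper in the study's methods and STAR in the submitters' processing notes. The deposited values were not corrected for depth or for H3. The reads per library, counted with a length of 51 bp that was inferred from the cap of 102, were at least 6521927 to 9359720. Such depth limits the precision of single regions, and no counting interval was computed.

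Region means over 300 bp on either side of the start codon (the table of genes holds coding regions, so that the start codon stands in for the TSS; 96.4% of lengths are multiples of 3) were divided by the nuclear mean, and the log2 of the quotient plus 0.1 was used. A gene was tested if its coverage averaged 5 or more, as all 30 members did. Phases were taken from the study's plot of oxygen against the numbered sampling points, since the labels give only the number and the time. Tests were run in R 4.3.3 with limma 3.58.1 (moderated F over the phases and contrasts, prior variance with a trend, Benjamini-Hochberg over all genes). Log2 ratios of paralogs were compared by exact permutation of the phases, which treats the order of the time points as free although adjacent ones are alike. Python 3.11.15 with numpy 2.4.6, pandas 2.3.3, scipy 1.17.1 and matplotlib 3.10.9 was used for the rest, and the procedures were tested on simulated data.

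The members and lists were chosen with earlier results of these data known. All members were accounted for, and full values were given for the paralog pairs, ERG9, ERG1 and ERG11, and in each downstream contrast for the 4 called members with the largest difference in each direction. ERG5 upstream, NCP1 and the upstream values of other members were added after their values were seen, as were the ratio of the 2 regions, the subsets of better covered genes and of members with an upstream region of their own, and the upstream counts under each alternative. A search for promoter motifs was not run, and no sequence was used here. Gene coordinates are those of the R64 reference table, whose chromosome lengths match the deposited files.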

Additional observations from a re-analysis of the deposited data

Results flagged for a closer look

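Within the 6 time points of RB or the 7 of RC, 10 of 120 groups of values (30 members, 2 regions, RB and RC) held a time point far from the rest of its phase. The critical value used is passed by chance in about 1 in 20 independent groups. These groups are not independent, since they share the same libraries. The search was not run over all genes, so whether genes in general shifted at these time points is not known. Of these, 6 were at time point 11, the last of RB, 3 at time point 12, the first of RC, and 1 at time point 6, the first of RB. All values are relative coverage. At time point 11, ERG24 downstream was 1.36 against 1.52 to 1.62 in the rest of RB, ERG3 downstream was 1.78 against 2.19 to 2.45, and ERG4 upstream was 1.16 against 1.44 to 1.52. At the same time point ERG27 was higher than the rest of RB both downstream, at 2.40 against 2.12 to 2.17, and upstream, at 2.71 against 2.40 to 2.50, and ERG25 upstream was 2.47 against 1.98 to 2.13. At time point 12, ERG13 downstream was 1.28 against 1.41 to 1.52 in the rest of RC, ERG1 downstream was 1.55 against 1.80 to 1.96, and ERG12 upstream was 1.66 against 1.99 to 2.16. At time point 6, NCP1 downstream was 2.17 against 1.76 to 1.86 in the rest of RB.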

How the results depend on the processing

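The 24 called contrasts of single members downstream were recomputed under 27 alternatives each. Of these values, 560 kept the direction and the side of the threshold, 86 kept the direction but were no longer called, and 2 changed sign, the RC differences of MVD1 (0.13) and ERG26 (0.0196) in the upstream region. The call was kept under every alternative for 11 contrasts. Changing the pseudocount (0.01 or 1), the coverage minimum (none or 20) or adding depth as a covariate moved no count of members by over 1.5 times.

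Members that differed between phases downstream (12) numbered 20 with quantile normalization and 21 with a 600 bp window, and 11 to 17 with 1 time point left out. Upstream (26), the range was 22 to 28 with 1 time point left out. In 500 bp downstream, a different region for which no upstream fit was run, 12 members differed. Higher in OX (6) ranged from 4 to 8. Lower in OX (3) were 6 with median-of-ratios scaling or the correction for the cap, 10 with quantile normalization, and 0 to 7 with 1 time point left out. Higher in RB (0) was 1 with median-of-ratios scaling, 500 bp, the correction for the cap or time point 11 counted in RC, 5 with quantile normalization, and 0 to 1 with 1 left out. Lower in RB (6) were 3 with quantile normalization, 15 with 600 bp, and 4 to 10 with 1 left out (10 without time point 5). Higher in RC (6) were 13 with 600 bp, 3 with 500 bp or the 15 aligned time points, and 3 to 8 with 1 left out (3 without any one of time points 1, 5, 7, 8, 9, 10, 13, 14 or 16). Lower in RC (3) were 5 with median-of-ratios scaling, quantile normalization, the correction for the cap or time point 11 in RC, 1 with 600 bp, and 3 with any time point left out. The cubic polynomial called 12 to 17 (16). Shares of all genes under the alternatives are not given, so the counts under them show only how the members moved.

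Upstream, lower in RB (18) were 7 with median-of-ratios scaling or quantile normalization and 15 to 21 with 1 left out, and higher in RC (18) were 17 to 21. In 500 bp downstream, which is a different region, 5 members were lower in RB and 3 were higher in RC. The upstream to downstream ratio differed at 18 to 23 members (20) and was higher in RC at 16 to 19 (18). The adjusted exact permutation p of HMG1 and HMG2 was 0.496 to 0.911 with 1 left out, that of UPC2 and ECM22 0.0002 to 0.01 and 0.0658 upstream, and that of ARE1 and ARE2 0.000616 to 0.0325.

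The mevalonate minus late difference of median OX contrasts (-0.14) was -0.0819 with a pseudocount of 1, -0.0341 with quantile normalization, -0.0735 with 600 bp, -0.0765 with 500 bp, -0.0377 upstream and -0.156 to -0.037 with 1 left out. In RB (0.05) it was -0.0115 with quantile normalization, -0.00778 with 600 bp, -0.00952 with depth as a covariate, -0.00835 with time point 11 in RC, -0.0178 upstream and -0.0381 to 0.0727 with 1 left out. In RC (0.11) it was 0.208 with the correction for the cap and 0.0739 to 0.138. The cause of these changes was not tested. No paired analysis was possible because the replicate numbers are those of the time points and are shared by no groups. The planned search for promoter motifs was not run. With 3 OX time points and 1 library each, 1 library can decide an OX call, and the cap limits differences at the members with high coverage.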
